A study of Mus musculus with 18 samples.

Results

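The 9 genes described here mark commitment to the B cell lineage and the first receptor that B cell precursors carry: Pax5, Ebf1, Vpreb1, Vpreb3, Igll1, Cd79a, Cd79b, Blnk and Ms4a1. They were chosen by symbol, and all 9 were present among the 19780 genes of the LSK table and the 18428 genes of the CMP table. LSK (Lin-Sca-1+c-Kit+ cells) hold the stem and early multipotent cells of the bone marrow, and CMPs are common myeloid progenitors. Both were sorted from the marrow of female mice and profiled by RNA sequencing. F1-P and F1-L were NZB/W F1 hybrids, a cross of the inbred strains NZB and NZW that develops lupus spontaneously. F1-P were 12 weeks old and prediseased, and F1-L were 28 to 36 weeks old and had proteinuria. B6-Y and B6-O were C57BL/6 wild-type mice of these same ages. LSK were profiled in all 4 groups and CMPs in F1-P and F1-L, with 3 samples in each group. F1-L differed from F1-P in age as well as disease, so the 2 cannot be told apart within the hybrids, and the C57BL/6 pair gives the change with age in another strain. The labels number the replicates without saying which mice they came from, so p-values measure the spread between these samples. The study's figure legends give n = 4 per replicate for CMPs and 3 replicates per group for LSK, without saying what the 4 were.

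B cell development starts when multipotent cells switch on Ebf1 and then Pax5, transcription factors that together open the B cell programme and close other lineages. The pro-B cell then makes a rearranged heavy chain, which pairs with a surrogate light chain built from VpreB and λ5 (encoded by Igll1) and with the signalling chains Igα (Cd79a) and Igβ (Cd79b) to form the pre-B cell receptor (pre-BCR). The adaptor BLNK carries its signal, and Ms4a1, which encodes CD20, is switched on later. Both sorting gates excluded cells with B220, a surface marker of B cells from the pro-B stage on, and the myeloid and erythroid markers CD11b, Gr-1, CD16/32 and Ter119, to a stated purity of at least 95%. In bulk RNA, fewer cells of a type and less RNA per cell cannot be told apart, and this holds for every level below.

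LSK samples held 23772252 to 28493747 reads and CMP samples 20001328 to 24761060. Levels are scaled CPM: reads per gene, relative to a library size that the authors had adjusted by a factor for each sample. All 9 genes had at least 5 reads in every sample. Immunoglobulin genes took 16.8% to 36.6% of the reads in F1 LSK and 0.301% to 4.76% in C57BL/6 LSK. Kit stood at 257 to 668 CPM in every sample. Ly6a, which encodes Sca-1, stood at 35.5 to 879 CPM in LSK and at 1.14 to 6.70 CPM in CMPs, although the methods print the CMP gate as Sca-1+. CMP F1-P replicates 2 and 3 stood apart from the other CMP samples in mature neutrophil transcripts. In LSK the same list was highest in F1-L replicate 1 and B6-O replicate 3, and erythroid transcripts stood apart in F1-P replicate 3.

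Pax5 (chromosome 4, 44524757 to 44710487, minus strand, GRCm38) and Ebf1 (chromosome 11, 44617317 to 45008091, plus strand) are the regulators of commitment. In LSK, Pax5 was measured at 89.2, 43.7 and 16.1 CPM in F1-P and at 27.4, 20.8 and 4.18 CPM in F1-L (replicates 1, 2 and 3). It was 100.01, 58.8 and 19.5 CPM in B6-Y and 9.40, 7.77 and 5.18 CPM in B6-O. Both young groups spanned a wide range, and B6-O lay wholly below B6-Y, whereas F1-P replicate 3 lay among the F1-L samples. Ebf1 followed the same order, with 90.2, 36.5 and 15.1 CPM in F1-P and 14.8, 16.3 and 4.99 CPM in F1-L. It was 89.0, 41.6 and 21.4 CPM in B6-Y and 8.21, 9.60 and 3.78 CPM in B6-O. The young groups of the 2 strains overlapped closely for both genes.

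The surrogate light chain genes Igll1 (chromosome 16, 16860671 to 16863985, minus strand) and Vpreb1 (chromosome 16, 16868403 to 16870843, minus strand) are near neighbours, and Vpreb3 (chromosome 10, 75943057 to 75949657, plus strand) encodes a VpreB-related protein. Igll1 reached 41.7, 22.6 and 6.95 CPM in F1-P and 6.85, 8.99 and 1.03 CPM in F1-L. In C57BL/6 it reached 70.4, 26.7 and 22.0 CPM in B6-Y and 3.24, 3.76 and 1.64 CPM in B6-O. All B6-O samples lay far under B6-Y, and F1-P replicate 3 lay among the F1-L samples. Vpreb1 was 30.5, 12.8 and 5.44 CPM in F1-P and 4.77, 6.60 and 1.26 CPM in F1-L. It was 44.4, 15.5 and 14.9 CPM in B6-Y and 2.24, 3.32 and 1.34 CPM in B6-O. Vpreb1 thus repeated the order of Igll1 sample by sample within each of the 4 LSK groups. Vpreb3 was 16.7, 7.53 and 6.36 CPM in F1-P and 8.09, 6.08 and 2.96 CPM in F1-L. It was 31.1, 14.4 and 11.5 CPM in B6-Y and 3.24, 2.62 and 2.88 CPM in B6-O, the narrowest range of the 9 genes in that group.

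The reads of Vpreb1 are shared in part with a near copy, Vpreb2 (chromosome 16, 17980428 to 17981273, plus strand). Their coding sequences, of 429 bases each in GENCODE M21, differ at 9 bases and are 97.9% identical. The first 150 bases are shown because they hold 3 of the 9 differences, in capitals, by which reads of this stretch can be assigned. Elsewhere the copies are identical over up to 196 bases, longer than a 75-base read.
Vpreb1: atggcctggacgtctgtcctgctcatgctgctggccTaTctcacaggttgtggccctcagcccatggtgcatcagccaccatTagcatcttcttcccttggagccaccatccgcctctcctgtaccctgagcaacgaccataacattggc
Vpreb2: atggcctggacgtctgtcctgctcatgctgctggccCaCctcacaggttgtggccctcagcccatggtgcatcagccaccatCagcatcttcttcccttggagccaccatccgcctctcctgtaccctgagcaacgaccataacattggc
Of the 1252 different 75-base windows in the Vpreb1 transcripts, 161 also occur in another gene, 136 of them in Vpreb2. Vpreb2 was assigned 21.9, 8.17 and 2.09 CPM in F1-P and 1.20, 3.42 and 0.225 CPM in F1-L. In C57BL/6 it was assigned 6.79, 2.50 and 2.48 CPM in B6-Y and 0.373, 1.26 and 0.635 CPM in B6-O. Vpreb2 was thus listed higher in F1-P replicates 1 and 2 than in any B6-Y sample, whereas the mean of Vpreb1 was lower in F1-P than in B6-Y. How the counting split reads between the copies is not given in the sources used here, and reads of both strains were aligned to a C57BL/6 genome. The sum of the pair ran from 7.53 to 52.5 CPM in F1-P and from 17.3 to 51.2 CPM in B6-Y. It ran from 1.48 to 10.02 CPM in F1-L and from 1.97 to 4.58 CPM in B6-O. Of the other 8 genes, Pax5 shared 6.31% of its windows and Cd79a 4.48% with overlapping or related transcripts, and the remaining 6 shared none.

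The receptor chains and the adaptor had the highest mean levels of the 9 per kilobase of exon in F1-P. Cd79a (chromosome 7, 24897381 to 24902197, plus strand) was 97.3, 146 and 119.5 CPM in F1-P and 53.0, 44.6 and 69.8 CPM in F1-L. It was 68.2, 51.0 and 38.0 CPM in B6-Y and 9.74, 6.66 and 27.8 CPM in B6-O. No sample of F1-L reached F1-P, and none of B6-O reached B6-Y. Cd79b (chromosome 11, 106311341 to 106314762, minus strand) was 66.7, 130.1 and 104 CPM in F1-P and 57.7, 66.6 and 59.8 CPM in F1-L. It was 52.3, 47.5 and 46.9 CPM in B6-Y and 23.2, 23.1 and 51.4 CPM in B6-O. The F1 groups met without crossing, at 66.7 and 66.6 CPM, and B6-O replicate 3 lay among B6-Y. Blnk (chromosome 19, 40928927 to 40994535, minus strand) was 195, 166 and 116 CPM in F1-P and 66.8, 75.02 and 73.6 CPM in F1-L. It was 131, 83.8 and 73.1 CPM in B6-Y and 24.4, 27.1 and 38.9 CPM in B6-O. Like Cd79a, Blnk kept each older group wholly below its young group in both strains. Ms4a1 (chromosome 19, 11249675 to 11266241, minus strand) was 9.77, 34.3 and 23.6 CPM in F1-P and 15.2, 14.7 and 11.3 CPM in F1-L. It was 1.43, 17.9 and 4.85 CPM in B6-Y and 3.48, 1.04 and 7.59 CPM in B6-O, so that young and old overlapped in both strains.

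**Figure D1:**
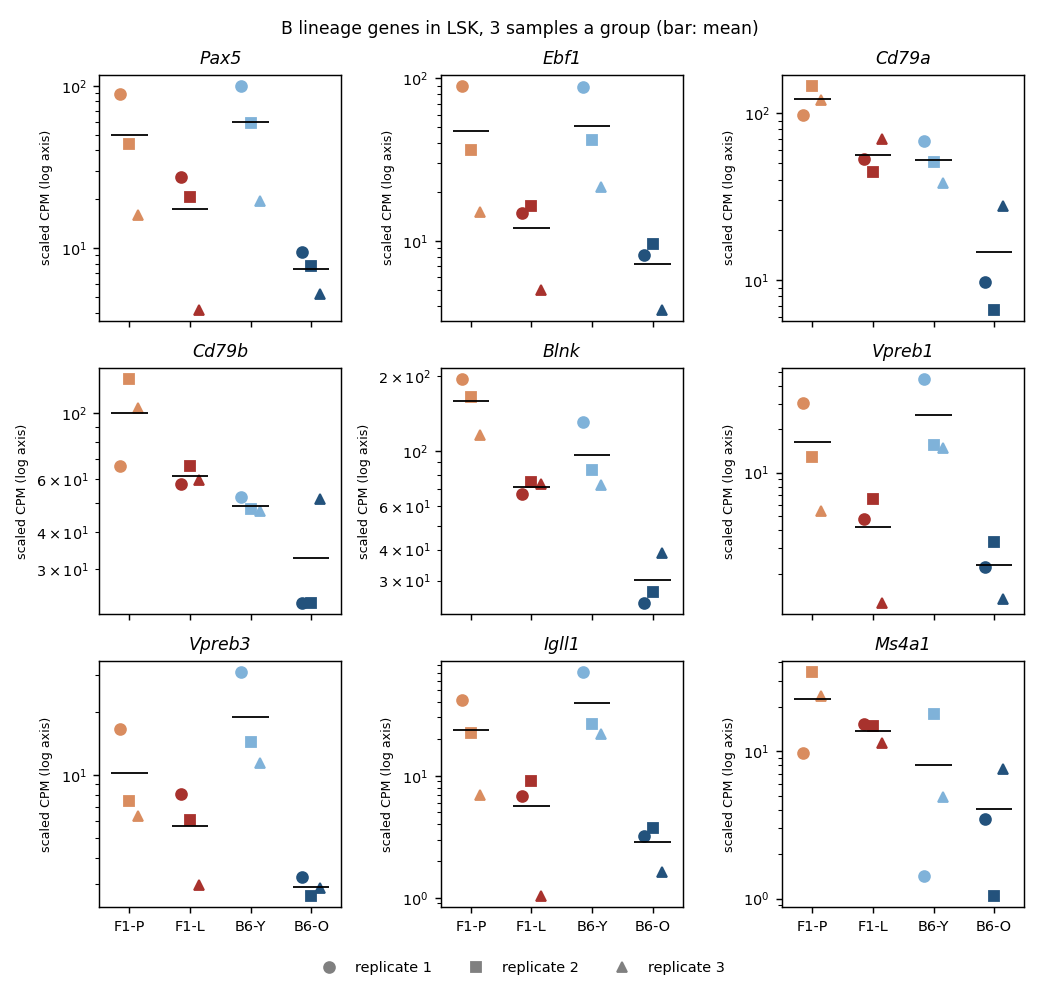
Scaled CPM of the 9 genes in each of the 12 LSK samples, on a log axis, with a panel for each gene, a marker for each replicate number and a bar at the group mean. Pax5, Ebf1, Vpreb1, Vpreb3 and Igll1 were highest in replicate 1 of F1-P and of B6-Y, whereas Cd79a, Cd79b and Ms4a1 were lowest in replicate 1 of F1-P.

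Per kilobase of exon, which allows levels to be compared between genes, the mean level in F1-P was 82.9 ± 16.7 CPM per kb for Cd79a and 70.0 ± 22.3 for Cd79b (SD, n = 3). It was 26.6 ± 6.65 for Blnk, 13.6 ± 10.8 for Vpreb1, 11.9 ± 6.56 for Vpreb3 and 10.97 ± 8.05 for Igll1. The regulators were lower on this scale, at 5.61 ± 4.17 for Pax5 and 4.84 ± 3.97 for Ebf1, and Ms4a1 stood at 3.64 ± 1.98. In B6-Y the order differed in the middle, with Vpreb3 at 22.1 ± 12.3, Vpreb1 at 20.8 ± 14.1 and Igll1 at 18.4 ± 12.3, beside Blnk at 16.0 ± 5.16. In B6-O Cd79b led with 22.7 ± 11.4, and Igll1 stood at 1.33 ± 0.510.

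By mean CPM, the order of the 4 LSK groups ran from B6-Y through F1-P and F1-L down to B6-O for Pax5, Ebf1, Vpreb1, Vpreb3 and Igll1. Each neighbour in that order overlapped with the next in all 5 of these genes. For Cd79a, Cd79b and Ms4a1 F1-P led, followed by F1-L, then B6-Y and last B6-O. F1-P stood apart from F1-L for Cd79a and Cd79b, and F1-L from B6-Y for Cd79b. Blnk ran from F1-P through B6-Y and F1-L down to B6-O, and B6-O stood apart from F1-L. B6-O was lowest for all 9 genes.

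The comparison of F1-L with F1-P LSK asks how the lineage genes differ once lupus is established. All 9 means were lower in F1-L, by 1.63-fold for Cd79b to 4.22-fold for Igll1. On the log2(CPM + 1) scale, which understates the change of low genes, the difference was -1.11 ± 0.20 (SE) for Cd79a, -1.11 ± 0.19 for Blnk and -0.65 ± 0.23 for Cd79b, and these 3 did not overlap between the groups. Among all 14332 genes tested, 7.29% were lower without overlap and 51.8% had a difference below 0. Pax5, Ebf1, Vpreb1 and Igll1 had larger differences with larger errors, at -1.48 ± 0.79 for Pax5, -1.69 ± 0.67 for Ebf1, -1.61 ± 0.65 for Vpreb1 and -1.88 ± 0.77 for Igll1. Vpreb3 differed by -0.71 ± 0.42 and Ms4a1 by -0.52 ± 0.41. The median over the 9 was -1.11, against -0.01 over all genes tested.

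With limma and Benjamini-Hochberg adjustment over all genes (threshold: adjusted p 0.05 with a fold above 1.5), 0 of 9 passed, beside 0.014% of all genes passing as lower. The adjusted p-values ran from 0.172 for Cd79a and Blnk to 0.666 for Ms4a1. At an unadjusted p below 0.05, 6 of 9 were lower, beside 4.19% of all genes. edgeR's quasi-likelihood test called 0 of 9, beside 0.014% of all genes called lower. The likelihood ratio test called 2, Cd79a (adjusted p = 6.37e-04) and Blnk (adjusted p = 1.74e-04), beside 1.14% of all genes called lower. DESeq2 called the same 2, beside 1.33% of all genes. Without F1-P replicate 3 limma called Blnk (adjusted p = 0.0398). Fits that left out 1 sample called 0 to 25 genes in all.

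**Figure D2:**
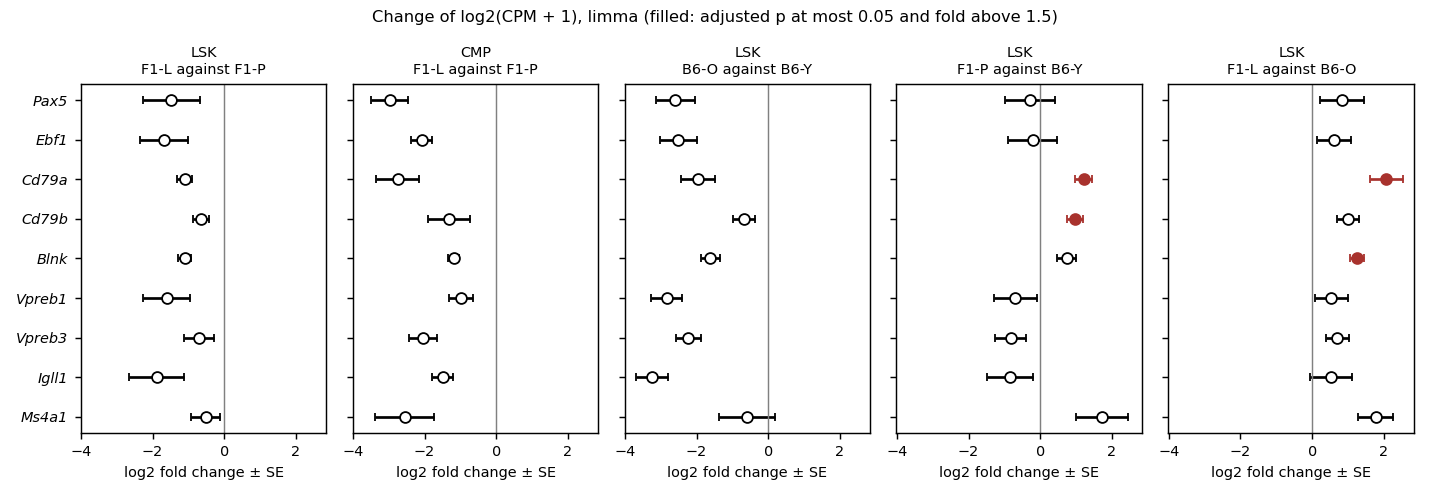
Log2 fold change of each gene on the log2(CPM + 1) scale with its standard error from limma, in 5 comparisons, with filled points for those past the threshold. All 9 genes lie left of 0 in the comparisons of older with younger mice, and 2 genes are filled in each comparison between strains.

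The LSK of ageing C57BL/6 mice give the same comparison without lupus. All 9 means were lower in B6-O than in B6-Y, by 1.503-fold for Cd79b and 1.99-fold for Ms4a1 up to 10.9-fold for Vpreb1 and 13.8-fold for Igll1. The surrogate light chain genes and Vpreb3 differed by -3.25 ± 0.45 for Igll1, -2.84 ± 0.44 for Vpreb1 and -2.23 ± 0.35 for Vpreb3 on the log2(CPM + 1) scale. Pax5 differed by -2.59 ± 0.54, Ebf1 by -2.51 ± 0.52, Cd79a by -1.96 ± 0.48 and Blnk by -1.62 ± 0.26. These 7 genes did not overlap between the groups, beside 5.57% of all 14005 genes lower without overlap and 47.1% with a difference below 0. Cd79b differed by -0.67 ± 0.30 and Ms4a1 by -0.59 ± 0.79, with overlap. The median over the 9 was -2.23, against 0.02 over all genes.

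No gene of the whole table passed limma's threshold here as lower (0% of all genes), and the 9 had adjusted p-values from 0.14 for Igll1 to 0.859 for Ms4a1. At an unadjusted p below 0.05, 7 of 9 were lower, beside 3.37% of all genes. edgeR's quasi-likelihood test called 0 of 9, beside 0% of all genes called lower. The likelihood ratio test called 6 (Pax5, Ebf1, Blnk, Vpreb1, Vpreb3 and Igll1), beside 0.364% of all genes, with an adjusted p of 2.32e-07 for Igll1. DESeq2 called these 6 and Cd79a, beside 0.7% of all genes. B6-O replicate 3 held the most plasma cell and neutrophil transcripts of its group, and without it limma called Cd79a, Cd79b and Blnk. Fits that left out 1 sample called 0 to 48 genes in all.

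Whether the difference with age was the same in both strains was tested as an interaction over the 12 LSK samples. The estimate, the change in the hybrids minus the change in C57BL/6, was above 0 for all 9 genes, so that each was less lowered in the hybrids, although the sign for Cd79b (0.03 ± 0.41) turned with the count tests and with the scaling without immunoglobulin genes, and the signs of Cd79b and Ms4a1 also turned when single samples were left out. It was 1.53 ± 0.59 for Vpreb3, 1.36 ± 0.98 for Igll1, 1.23 ± 0.87 for Vpreb1, 1.12 ± 1.06 for Pax5 and 0.82 ± 0.94 for Ebf1. It was 0.86 ± 0.57 for Cd79a, 0.51 ± 0.35 for Blnk and 0.06 ± 0.99 for Ms4a1. limma called 0 of 9, beside 0% of 15084 genes, and the smallest adjusted p was 0.976. Vpreb3 alone had an unadjusted p below 0.05 (0.0246, limma), and 0 of 9 were called by DESeq2 (0.179% of all genes higher) or by the likelihood ratio test (0.0597%) and the quasi-likelihood test (0%) of edgeR. Of all genes, 50.1% lay below 0. A difference in either direction was not detectable with 3 samples a group.

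Between the strains, 4 of the 9 genes lay above 0 and 5 below it in young mice. Of the 5 below, 0 had an unadjusted p below 0.05 (limma). In young mice, Cd79a and Cd79b rose in F1-P over B6-Y by 1.21 ± 0.23 (adjusted p = 0.0105, limma) and 0.97 ± 0.23 (adjusted p = 0.0246) on the log2(CPM + 1) scale, 2.31-fold and 2.05-fold by mean CPM. They were 2 of 9 genes called higher, beside 10% of all genes, and the only 2 higher without overlap, beside 17.4%. Blnk differed by 0.74 ± 0.26 (adjusted p = 0.0946) and Ms4a1 by 1.71 ± 0.73 (adjusted p = 0.154), with overlapping samples. The regulators, the surrogate light chain genes and Vpreb3 lay on the other side of 0, at -0.28 ± 0.70 for Pax5, -0.22 ± 0.67 for Ebf1, -0.70 ± 0.61 for Vpreb1, -0.82 ± 0.43 for Vpreb3 and -0.84 ± 0.64 for Igll1, and 0 of 9 were called lower, beside 6.18% of all genes. Cd79a kept its call without any 1 sample, whereas Cd79b kept it only without F1-P replicate 1. Blnk was called as well without B6-Y replicate 1, and Ms4a1 without B6-Y replicate 2. The fits that left out 1 sample called 927 to 2229 genes in all. Pax5 and Ebf1 changed sign without F1-P replicate 3 or without B6-Y replicate 1, at 0.35 and 0.41 without the former and 0.23 and 0.30 without the latter.

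In older mice all 9 means were higher in F1-L than in B6-O, by 1.67-fold for Ebf1 to 3.78-fold for Cd79a, while 52.4% of all genes had a difference below 0. Cd79a rose by 2.07 ± 0.47 (adjusted p = 0.0326, limma) and Blnk by 1.25 ± 0.19 (adjusted p = 0.00661), 2 of 9 beside 7.84% of all genes called higher. Ms4a1 differed by 1.77 ± 0.49 (adjusted p = 0.0603) and Cd79b by 1.00 ± 0.30 (adjusted p = 0.0821). These 4 genes did not overlap between the groups, beside 17.5% of all genes higher without overlap. The other 5 overlapped, at 0.84 ± 0.62 for Pax5, 0.70 ± 0.31 for Vpreb3, 0.60 ± 0.48 for Ebf1 and 0.53 for both Vpreb1 (SE 0.47) and Igll1 (SE 0.59). Of the 6 fits that each left out 1 sample, Cd79a kept its call only in that without B6-O replicate 3, where limma called 4 of 9, while Blnk lost its call only without F1-L replicate 3 (adjusted p = 0.0501), where Pax5 was called instead. These 6 fits called 448 to 2285 genes in all.

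Plasma cell markers were measured beside these genes because plasma cells descend from B cells and because B220, one of the markers gated out, is lost from many of them. The 9 measured markers, among them Jchain, Xbp1, Prdm1 and Irf4, were all called higher in F1-P than in B6-Y (limma), beside 10% of all genes. In F1-L against B6-O 7 of 9 were called higher, beside 7.84% of all genes. None of the 9 was at 0 in LSK. Their summed level was 14867 to 38485 CPM in F1-P, 10018 to 13348 CPM in F1-L, 861 to 2109 CPM in B6-Y and 329 to 2606 CPM in B6-O. In F1-P, replicate 2 had the highest sum and the highest Cd79a, Cd79b and Ms4a1, and replicate 1 had the lowest sum and the highest Pax5, Ebf1, Blnk, Vpreb1, Vpreb3 and Igll1. In B6-O, replicate 3 had the highest sum with the highest Cd79a, Cd79b, Blnk and Ms4a1 and the lowest Pax5, Ebf1, Vpreb1 and Igll1. In F1-L, replicate 3 had the highest sum with the highest Cd79a and the lowest Pax5, Ebf1, Vpreb1, Vpreb3, Igll1 and Ms4a1. In B6-Y, replicate 1 had the lowest sum and the highest level of all genes but Ms4a1. Markers of other mature cells also differed between the LSK groups. The 8 neutrophil markers, none at 0, summed to 268 to 1168 CPM in F1-P, 1753 to 11092 CPM in F1-L, 443 to 4951 CPM in B6-Y and 759 to 9894 CPM in B6-O. The 8 erythroid markers summed to 2794 CPM in F1-P replicate 3, against 46.1 and 48.1 CPM in replicates 1 and 2 of that group and 178 to 219 CPM in F1-L, and Hba-a2 was at 0 in F1-P replicates 1 and 2 and F1-L replicate 3. The 6 NK cell markers, none at 0, were all called higher in F1-P than in B6-Y and in F1-L than in B6-O (limma). The shares of all genes called higher were 10% and 7.84%. The part of plasma cell transcripts in the levels of Cd79a, Cd79b and Ms4a1 was not tested.

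**Figure D3:**
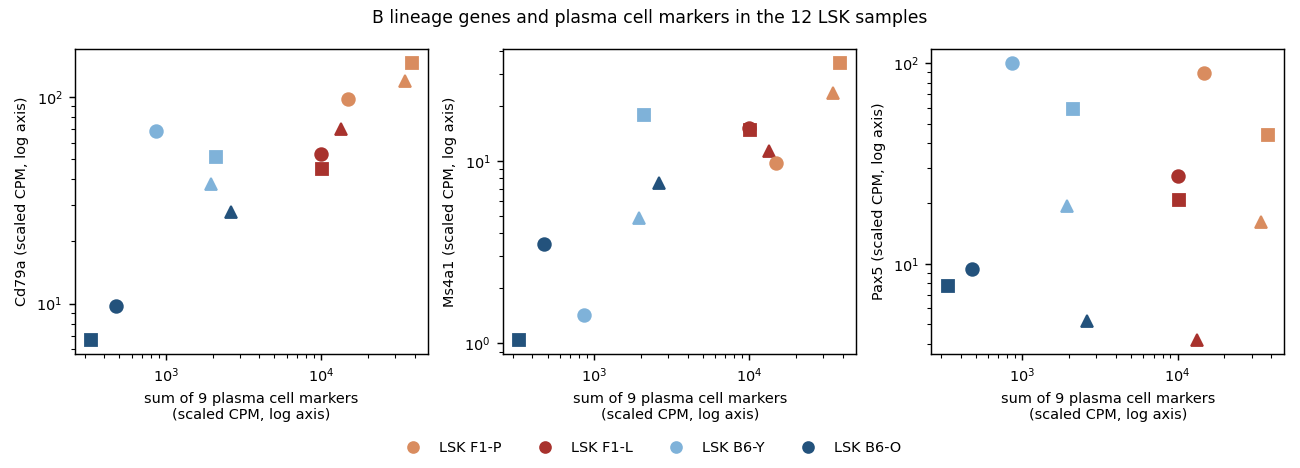
Scaled CPM of Cd79a, Ms4a1 and Pax5 in the 12 LSK samples against the summed scaled CPM of 9 plasma cell markers, all on log axes, coloured by group, with a marker for each replicate number. Ms4a1 is 1.04 to 3.48 CPM in the 3 samples with the lowest sums, whereas Pax5 spans 4.18 to 89.2 CPM among the F1 samples, whose sums are 10018 CPM or more.

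In CMPs the means of the same 9 genes were lower in F1-L than in F1-P, and below the means in LSK of the same groups. Single samples of the 2 cell types overlapped for some genes. In F1-P, Pax5 was 16.1 CPM in LSK replicate 3, below CMP replicates 2 and 3. The tables of the 2 cell types were normalized separately, so the levels are set side by side without a test. Pax5 was 9.27, 34.9 and 32.5 CPM in F1-P and 1.36, 1.70 and 2.99 CPM in F1-L, and its mean differed 12.7-fold. Ebf1 was 8.02, 15.8 and 9.95 CPM in F1-P and 1.64, 1.29 and 2.69 CPM in F1-L, a 6.02-fold difference. Every F1-P sample was above every F1-L sample for both regulators. Igll1 was 4.95, 7.63 and 3.06 CPM in F1-P and 1.05, 0.774 and 1.54 CPM in F1-L. Vpreb1 was 3.41, 4.77 and 1.72 CPM in F1-P and 1.27, 0.516 and 1.54 CPM in F1-L. Vpreb3 was 3.12, 8.38 and 7.32 CPM in F1-P and 0.273, 0.516 and 1.44 CPM in F1-L, where its lowest sample rested on 6 reads. The groups did not overlap for these 3 genes, though Vpreb1 came near at 1.72 against 1.54 CPM.

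Cd79a in CMPs was 5.23, 21.2 and 26.9 CPM in F1-P and 0.909, 0.826 and 2.64 CPM in F1-L, a 12.2-fold difference of the means. Cd79b was 10.6, 35.1 and 44.1 CPM in F1-P and 10.7, 5.57 and 14.7 CPM in F1-L, the only one of the 9 with overlap. Blnk was 24.9, 29.6 and 22.2 CPM in F1-P and 9.82, 10.4 and 11.6 CPM in F1-L, with the smallest spread relative to its mean. Ms4a1, the late gene, was 1.20, 13.5 and 18.7 CPM in F1-P and 0.227, 0.258 and 0.995 CPM in F1-L, a 22.5-fold difference whose lowest F1-L sample rested on 5 reads. F1-P replicate 1 was the lowest F1-P sample for Pax5, Ebf1, Cd79a, Cd79b, Vpreb3 and Ms4a1, and replicate 3 for Blnk, Vpreb1 and Igll1.

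**Figure D4:**
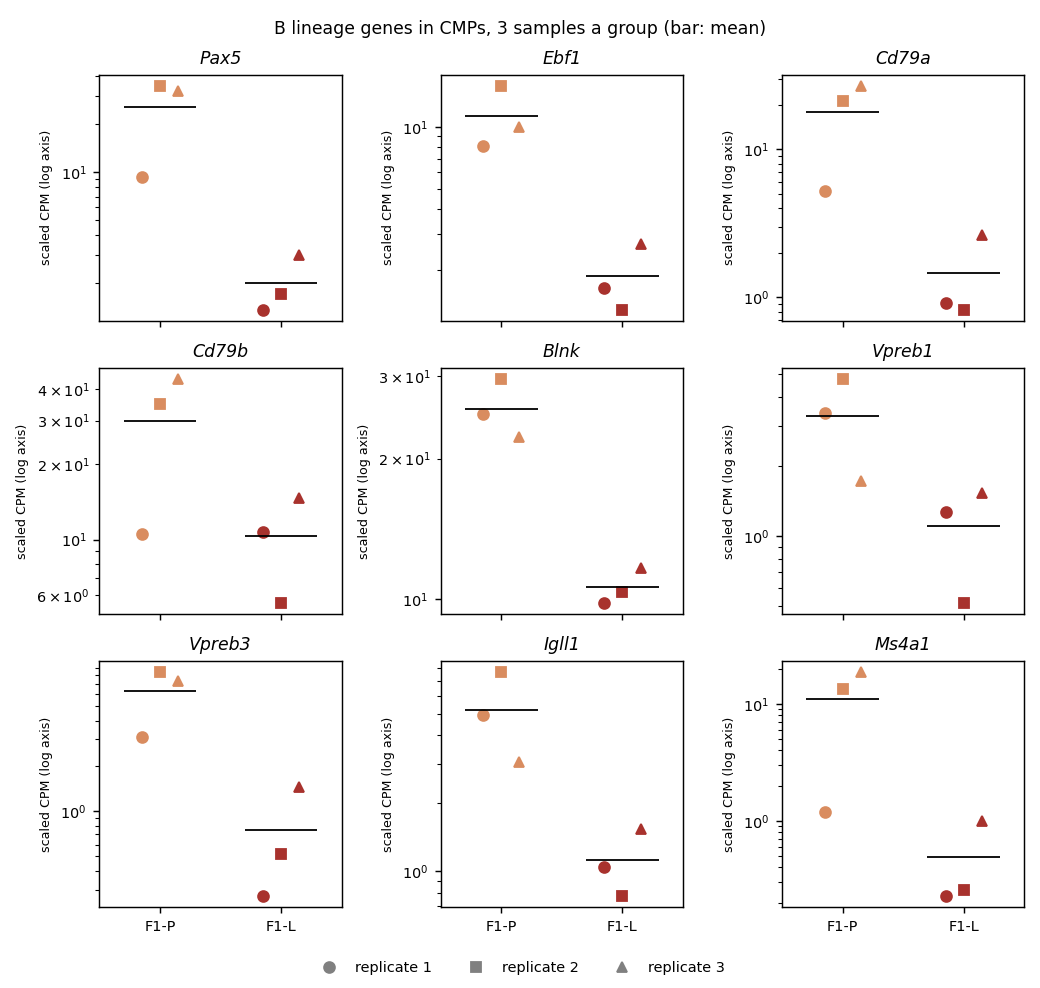
Scaled CPM of the 9 genes in each of the 6 CMP samples, on a log axis, with a panel for each gene, a marker for each replicate number and a bar at the group mean. All F1-P samples lie above all F1-L samples for 8 genes, and Cd79b overlaps.

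The differences on the log2(CPM + 1) scale were -2.97 ± 0.51 (SE) for Pax5, -2.75 ± 0.60 for Cd79a, -2.56 ± 0.81 for Ms4a1, -2.07 ± 0.29 for Ebf1 and -2.03 ± 0.39 for Vpreb3. They were -1.50 ± 0.30 for Igll1, -1.32 ± 0.57 for Cd79b, -1.19 ± 0.15 for Blnk and -0.99 ± 0.33 for Vpreb1. The median was -2.03, against 0.04 over all 12926 genes tested. The 8 genes lower without overlap compare with 6.57% of all genes, of which 42% had a difference below 0. Among these 8, Ms4a1 passed the filter on low values only through F1-P, as all its F1-L samples lay under 1 CPM. Its lack of overlap was thus fixed in advance, and its place in the counts below has the same limit. limma called 0 of 9, with adjusted p-values from 0.283 for Ebf1 and Blnk to 0.521 for Cd79b, beside 0.00774% of all genes called lower, and 8 of 9 had an unadjusted p below 0.05, beside 5.25% of all genes. edgeR's quasi-likelihood test called 0 of 9, beside 0.00774% of all genes called lower. The likelihood ratio test called 7 as lower, all but Cd79b and Vpreb1, beside 2.11% of all genes, with adjusted p-values of 3.90e-06 for Pax5, 6.77e-06 for Ebf1 and 3.46e-05 for Blnk, and DESeq2 called the same 7, beside 2.24%.

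Other mature cell transcripts moved with the CMP groups. The 8 mature neutrophil markers, none at 0, summed to 279, 5813 and 7626 CPM in F1-P and to 73.5, 57.9 and 391 CPM in F1-L. The 9 plasma cell markers summed to 162 to 463 CPM in F1-P and 126 to 205 CPM in F1-L, with 8 or 9 of 9 over 3 reads and Tnfrsf17 at 0 in F1-L replicate 3. The 8 T cell markers summed to 12.3 to 38.7 CPM in F1-P and 7.48 to 13.1 CPM in F1-L, with 5 to 8 of 8 over 3 reads in F1-P and 3 to 5 in F1-L. The 8 plasmacytoid dendritic cell markers summed to 281 to 642 CPM in F1-P and 216 to 372 CPM in F1-L. Over 3 reads were 7 or 8 of 8 in F1-P and 6 or 7 in F1-L, with Klk1 at 0 in every F1-L sample and Pacsin1 down to 0 there. Irf8 and Tcf4 averaged 155 and 100 CPM in F1-L, where the mean of this sum was 307 CPM. All 4 sums were highest in F1-P replicates 2 and 3. The sums of F1-P replicate 1 in these 4 lists lay within the F1-L range. The 7 erythroid markers summed to 870, 715 and 1312 CPM in F1-P and 478, 737 and 540 CPM in F1-L. Replicate 1 of F1-P thus exceeded every F1-L sample. Of the markers tested, 4 of 7 erythroid and 2 of 8 neutrophil ones were lower without overlap, beside 6.57% of all genes. The counts were 2 of 7 for plasma cell, 2 of 6 for plasmacytoid dendritic cell and 0 of 3 for T cell markers. Of these, Ccr9 passed the filter only through F1-P. The 8 B lineage genes without overlap were above every F1-L sample in F1-P replicate 1 too, which that lack of overlap already requires. They exceeded the highest F1-L sample by 1.21-fold for Ms4a1 to 3.21-fold for Igll1, and Cd79b did not exceed it. With F1-P replicates 2 and 3 left out together, a choice made after seeing the data, F1-P kept a single sample, assumed to vary like F1-L, and the filter on low values left 6 of the 9 genes. Their median was -1.33, against -1.41 for the same 6 genes with all samples. Without F1-P replicate 1, limma called Pax5, Ebf1, Cd79a, Blnk and Vpreb3, together with 434 genes in all. The part of mature cells in the CMP difference was not tested.

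**Figure D5:**
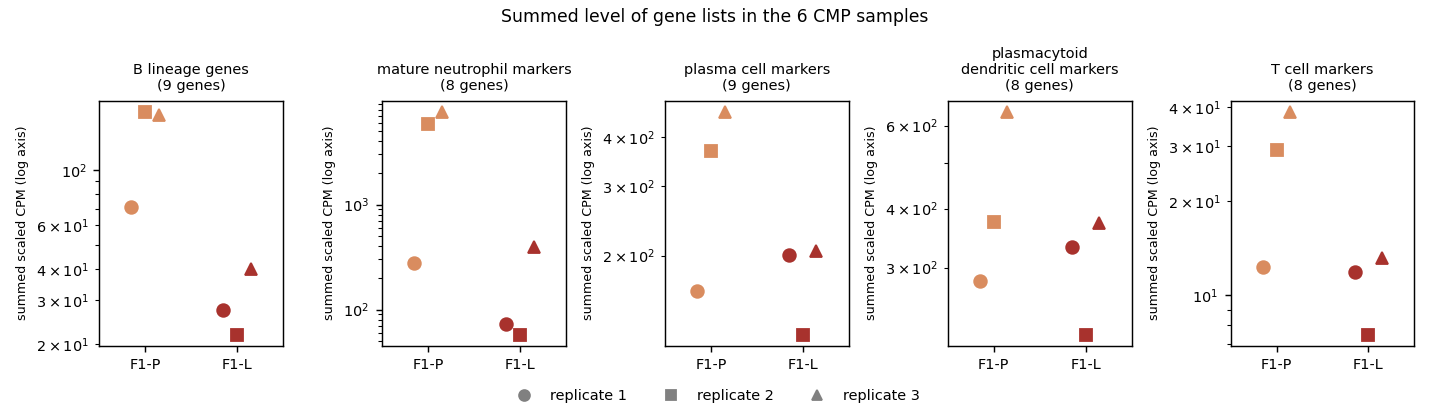
Summed scaled CPM, on log axes, of the 9 B lineage genes and of 4 lists of mature cell markers in each of the 6 CMP samples, with a marker for each replicate number. F1-P replicates 2 and 3 are highest in every panel, and F1-P replicate 1 exceeds every F1-L sample for the B lineage genes but lies among the F1-L samples for plasma cell, plasmacytoid dendritic cell and T cell markers. The erythroid markers are not drawn.

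Genes that act before or beside these 9 in B cell specification, such as the receptors Il7r and Flt3, the recombinase genes Rag1 and Rag2 and the factors Foxo1, Lef1 and Pou2af1, were followed as a list of 13, of which 12 were measured. In LSK, 11 of the 12 were lower in F1-L than in F1-P (median -0.71), beside 51.8% of all genes, and limma called 0, whereas the likelihood ratio test called Foxo1, Rag1 and Rag2, beside 1.14% of all genes. Foxo1 was 110.0, 115 and 80.9 CPM in F1-P and 65.2, 59.4 and 54.0 CPM in F1-L (log2 difference -0.75 ± 0.15, adjusted p = 0.172, limma). Rag2 differed by -1.43 ± 0.40 (adjusted p = 0.226) and Rag1 by -1.68 ± 0.59 (adjusted p = 0.305). In ageing C57BL/6 LSK, 12 of 12 were lower (median -0.64), beside 47.1% of all genes, led by Lef1, at 27.9, 12.7 and 9.12 CPM in B6-Y and 2.24, 1.89 and 3.38 CPM in B6-O. limma called 0 of these and the likelihood ratio test 1, Lef1. In CMPs 10 of 12 were lower in F1-L (median -0.95), beside 42% of all genes, with 0 called by limma and 4 by the likelihood ratio test, beside 2.11% of all genes. Between the strains, Pou2af1, a coactivator that mature B cells and plasma cells also express, rose by 3.17 ± 0.35 in F1-P (adjusted p = 8.84e-04, limma) and by 4.26 ± 0.68 in F1-L (adjusted p = 0.00816). Ikzf3 rose by 3.02 ± 0.62 in F1-P and 2.86 ± 0.41 in F1-L, and Foxo1 by 1.07 ± 0.13 in F1-L. Flt3, the receptor of lymphoid-primed progenitors, fell by 0.92 on the same scale in F1-P, as did Bcl11a by 0.71.

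Of 15 genes of pre-BCR and BCR signalling, 14 were measured in LSK and 13 tested in CMPs. In F1 LSK the list was split evenly, with 7 genes lower and 7 higher in F1-L, and limma called 0. Cd22, an inhibitory receptor of B cells, was on the higher side, at 2.56, 3.56 and 4.37 CPM in F1-P and 19.2, 7.87 and 11.3 CPM in F1-L (adjusted p = 0.172, limma), and it was the 1 gene of the list that the likelihood ratio test called (adjusted p = 8.79e-04). In ageing C57BL/6 LSK 13 of the 14 signalling genes were lower, beside 47.1% of all genes. The likelihood ratio test called 2 of them, beside 0.364% of all genes. In CMPs 11 of 13 were lower in F1-L, beside 42% of all genes. That test called 5 of them, beside 2.11%, and limma called 0 in both comparisons. Of 10 later B cell surface genes, all 10 were tested in F1 LSK, 9 in ageing C57BL/6 LSK and 4 in CMPs, and limma called 0 in each. In F1 LSK the likelihood ratio test called Cr2 higher and Cd40 and Fcrla lower in F1-L, and in CMPs it called Fcrla, Tnfrsf13c (the receptor for BAFF) and Ighd lower. Cr2 in F1 LSK passed the filter on low values only through F1-L, and Fcrla in CMPs only through F1-P. In F1-P against B6-Y limma called 3 of the 8 tested higher, Cd40 (1.67 ± 0.37), Fcrla (3.06 ± 0.46) and Tnfrsf13c (1.45 ± 0.20), beside 10% of all genes, and 1 lower, Ighd (-0.86 ± 0.22), beside 6.18%. In F1-L against B6-O it called Fcrla, Bank1 and Tnfrsf13c higher, 3 of 10 beside 7.84% of all genes.

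The genes most like the 9 across the 12 LSK samples were ranked by Pearson's r between log2(CPM + 1) and the mean of the 9, as a description of samples that share strain and age groups. From 14838 genes other than immunoglobulin genes, the 9 themselves and genes without a symbol of their own were set aside. The top 10 of the rest were Cecr2 (r = 0.946), Lef1 (0.943), Uvrag (0.932), Gfra2 (0.924), Acss1 (0.909), Chst3 (0.894), Dgkd (0.884), Sdc4 (0.881), Gpat3 (0.880) and P2rx3 (0.878). Lef1 is a transcription factor of early lymphoid cells. Cecr2 was 38.5 ± 25.2 CPM in B6-Y and 30.1 ± 15.1 CPM in F1-P (SD, n = 3), against 14.1 ± 8.72 CPM in F1-L and 5.57 ± 1.89 CPM in B6-O.

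The promoters were searched for letters that factors of this programme bind: CCCNNGGG, the core of the EBF1 site, and CANNTG, the E box bound by E proteins. Both read the same on either strand. The RefSeq promoter table (GRCm38.p6) held 8 start sites of 7 of the 9 genes, and the 250 bases before each start were read. CCCNNGGG was present at 1 of the 8, that of Igll1, and at 11.8% of all 32851 start sites. CANNTG was present at 7 of the 8, all but the first Ebf1 start, and at 66.2% of all. The windows of Igll1, which differed most with age, and of Pax5 are shown with the matches in capitals, of which CCCAGGGG in Igll1 is the EBF core.
Igll1, chr16:16863986-16864235, minus strand: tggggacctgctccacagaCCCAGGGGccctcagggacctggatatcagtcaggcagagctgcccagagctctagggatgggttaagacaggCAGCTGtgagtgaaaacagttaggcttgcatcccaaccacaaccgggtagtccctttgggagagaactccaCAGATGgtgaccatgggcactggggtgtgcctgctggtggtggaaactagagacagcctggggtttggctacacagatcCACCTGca
Pax5, chr4:44710695-44710944, minus strand: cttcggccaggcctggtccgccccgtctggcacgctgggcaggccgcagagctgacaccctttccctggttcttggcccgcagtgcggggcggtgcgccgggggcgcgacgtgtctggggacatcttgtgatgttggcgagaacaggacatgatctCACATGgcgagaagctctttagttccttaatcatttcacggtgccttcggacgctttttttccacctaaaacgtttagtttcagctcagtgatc
The Igll1 window holds 3 E boxes and the Pax5 window 1. A match is a description of the letters and was not tied to binding here.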

How the data were processed

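RNA sequencing of sorted mouse bone marrow cells was analysed, 12 LSK and 6 CMP samples. Per the labels and the methods, the authors aligned single-end 75-base reads with STAR 2.6 to mm10 (GRCm38), counted reads per gene with HTSeq and normalised with edgeR. The deposited values are a signal, CPM of a scaled library size, and not plain CPM as the design had assumed. Whole reads were recovered from their steps (99.997% of LSK and 100.0% of CMP values within 0.01 read).

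A gene entered a comparison when 3 or more of its samples reached a CPM of 1. Tests were made on log2(CPM + 1) with limma 3.58.1 (lmFit, eBayes with trend) and Benjamini-Hochberg adjustment over all genes. A call needed both an adjusted p no higher than 0.05 and a fold over 1.5. edgeR 4.0.16 and DESeq2 1.42.0 were run on the recovered reads in R 4.3.3. Tables were made in Python 3.11.15. Before use, the tests were run on simulated data, with a limit set only on calls in the wrong direction. No limit was set on false calls or missed changes, and DESeq2 was not run there for the interaction.

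The genes, lists and tests were chosen with earlier results of these data known. The rule for named genes was all 9 in each comparison, called genes of a list or otherwise up to 3 with the smallest adjusted p, and the 10 genes most like the 9; not every gene it allows is printed. Vpreb2 and the Cecr2 group levels were added for context after their values were seen. GENCODE M21 gave a symbol for 18916 LSK and 17596 CMP genes. Dntt, Pik3ap1 and Mzb1 are not analysed here. A gene of the signalling list is not reported here. Protein sequences were not used here. Replicates of a group differed by more than sampling noise.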

Additional observations from a re-analysis of the deposited data

How the results depend on the processing

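In the comparisons of F1-L with F1-P the 9 genes kept their direction in LSK, and in CMPs wherever they could be tested (Ms4a1 not without any 1 F1-P sample, Vpreb3 not at a mean CPM of at least 5), whereas the number past the threshold depended on the test. In LSK F1-L against F1-P, 0 were called by limma and 2 by the likelihood ratio test and by DESeq2, and 0 to 1 with 1 sample left out. Over all genes these tests called 4, 659 and 740. In CMPs 0 were called by limma and 7 by the likelihood ratio test and by DESeq2 (1, 318 and 350 genes in all), and 0 to 5 with 1 sample left out. The CMP median of -2.03 became -2.59 under both edgeR tests and DESeq2, and -1.33 without F1-P replicates 2 and 3, chosen after seeing the data, where 6 genes could be tested whose median with all samples was -1.41. In B6-O against B6-Y the likelihood ratio test called 6, DESeq2 7 and the fit over all 12 LSK samples 1 (0, 115 and 195 genes in all by limma, the likelihood ratio test and DESeq2). It was 0 to 3 with 1 sample left out (0 to 48 genes in all), and 4 without B6-O replicate 3 and B6-Y replicate 2, also chosen after seeing the data. The count of all genes called in that last fit is not given here. The difference of Ms4a1 in B6-O against B6-Y ran from -1.29 to 0.19, the latter without B6-Y replicate 2. In F1-P against B6-Y, 2 became 1 in the fit over all 12 samples and 1 to 2 with 1 sample left out, and the differences ran from -0.92 to 0.35 for Pax5 and from -0.85 to 0.41 for Ebf1. In F1-L against B6-O, 2 became 1 by the quasi-likelihood test, 4 by DESeq2 and 1 to 4 with 1 sample left out, with medians of 0.44 to 1.23. The interaction of Cd79b was -0.12 by both edgeR tests and DESeq2, -0.000543 scaled without immunoglobulin genes, and -0.24 to 0.40 with 1 sample left out, and that of Ms4a1 ran from -0.71 to 0.77. With the replicate number as a block, 5 of 9 were called in F1-P against B6-Y. The fit without a block already called 10% of all genes higher and 6.18% lower there. The share of all genes called with the block is not given here, so the 5 cannot be read as particular to the 9. The counts of the other comparisons did not change. In F1-P against B6-Y the deviations of same-numbered samples correlated at 0.33, 0.32 and 0.07. No comparison had a correlation over 0.1 in all 3 pairs, so the numbers were not taken to pair samples. Of the single-gene values, 871 kept their direction and side of the threshold, 58 passed it newly, 13 no longer passed and 18 changed sign. The causes were not tested. Depth limits Ms4a1 and Vpreb3 in CMPs, with as few as 5 and 6 reads.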
